A study of Mus musculus with 17 samples.

Results

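Neutrophil granule and receptor genes were examined as a set of 10 genes chosen by name, out of the 21931 genes counted in each tumor. Ltf, Lcn2, Retnlg, Mmp8, Ngp and Camp encode proteins made or stored by neutrophils, Csf3r, Cxcr2 and Ly6g encode proteins of the neutrophil surface, and Csf3 encodes the growth factor G-CSF. The samples were distant MC38 tumors of wild-type C57BL/6J mice that were 6 to 8 weeks old when they received MC38 mouse colon cancer cells under the skin on both sides. In the 8 cryoablation tumors, the tumor on the opposite side had been frozen on day 7 after implantation in cycles of 20 s as the labels give them, and the unfrozen tumor was taken on day 5 after freezing. The 9 control tumors are labelled as controls of the same day, and the labels do not say whether these mice had a probe inserted. The study's text gives the group sizes the other way round, so the sign of every difference here rests on the deposited labels. MC38 is 1 line, so the tumors share their tumor genotype. The tumors were frozen whole, so the RNA came from tumor cells and from all host cells within or attached to the tumor.

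Neutrophils fill their granules in order while they mature in the bone marrow. Primary granule genes such as Mpo and Elane are transcribed first, the secondary granule genes Ltf, Ngp, Camp and Lcn2 later, and genes such as Mmp8 later still, so a mature neutrophil in tissue carries granule proteins of which much of the mRNA has gone. G-CSF, acting through its receptor CSF3R, drives this maturation and the release of the cells, and CXCR2 with its CXC chemokine ligands draws them into tissue. Several of these genes are not limited to neutrophils, since glandular epithelium makes lactoferrin (Ltf) and many inflamed epithelial cells make lipocalin 2 (Lcn2).

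Control libraries held between 14154687 and 17898672 counts and cryoablation libraries between 13524899 and 16847050. Cryoablation replicates 2, 4 and 5 stood apart from the other 14 tumors on the first principal component, which held 46.2% of the variance: they lay at -28.4, -39.4 and -33.9, and the median log2 deviation of their short genes from the mean of all tumors was 0.71, 0.72 and 0.90. Values without these tumors are given for the lists and listed genes with an unadjusted p under 0.05. They are also given for the members whose direction turned without them, here or with the alternatives at the end. Other genes named for their likeness to a member have no such values. As epithelial marks of the labelled colon cancer cells, Epcam had at least 12 counts in control tumors and 8 in cryoablation tumors, and Krt19 had at least 6 and 7, whereas Krt8 had 0 counts in 2 control tumors and 1 cryoablation tumor.

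Per length, Retnlg had the highest level of the 10 genes, with a median of 4.0 FPKM (reads scaled by gene length and by the total of the library) over the 17 tumors. Csf3r followed at 2.57 FPKM, Lcn2 at 1.70 FPKM, Mmp8 at 0.756 FPKM, Ltf at 0.460 FPKM, Camp at 0.322 FPKM, Cxcr2 at 0.184 FPKM and Csf3 at 0.125 FPKM, and Ly6g and Ngp had medians of 0. The ranges over the tumors overlapped between each gene and the next in this order, so neighbours did not differ beyond their spread. Genes farther apart did separate: the highest Ly6g level, 0.156 FPKM, was below the lowest level of Retnlg (0.214 FPKM), of Mmp8 (0.231 FPKM) and of Csf3r (0.959 FPKM). Within a tumor, the member with the most reads per length was Retnlg in 9 tumors, Csf3r in 7 and Lcn2 in 1, which was cryoablation replicate 7. Ly6g encodes the surface antigen by which mouse neutrophils are usually sorted, and it had 9 reads in all 17 libraries together.

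**Figure D1:**
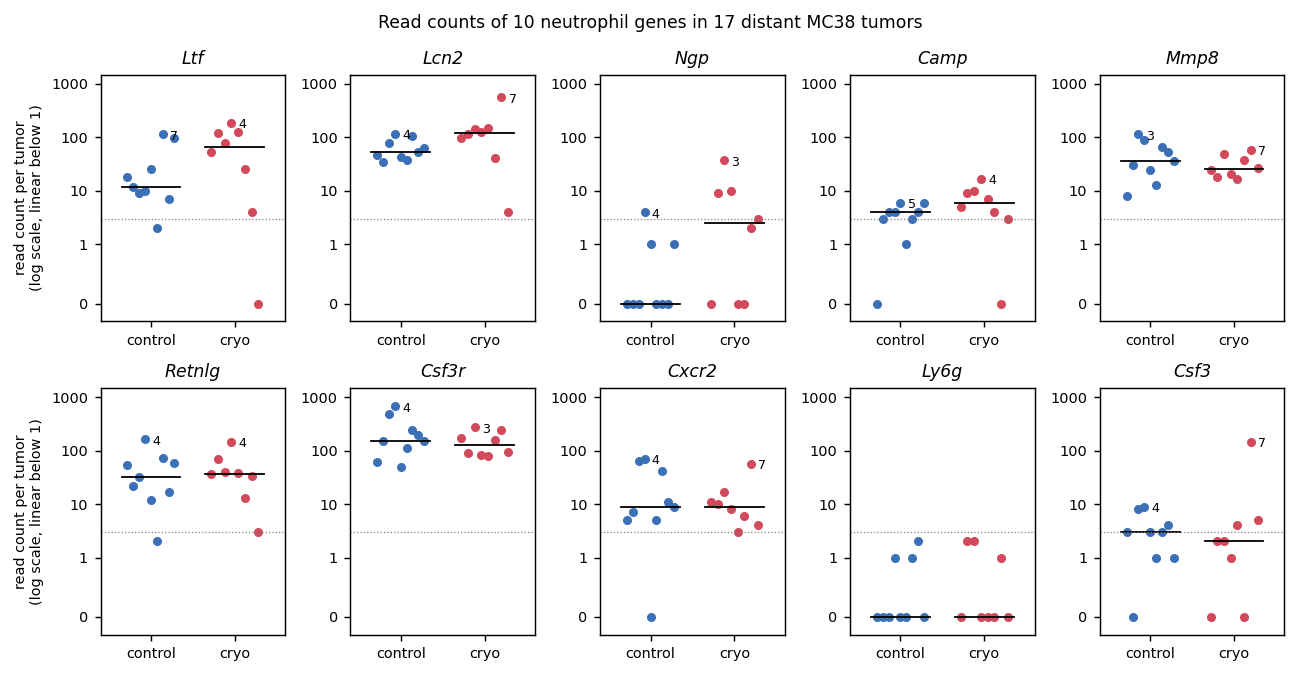
Read count per tumor (vertical axis, log scale that is linear below 1) of each of the 10 genes in the 9 control and 8 cryoablation tumors, with the group median as a line, the limit of 3 counts dotted and the replicate number beside the highest tumor of a group. The groups overlapped for all 10 genes, Ly6g stayed at 2 counts or fewer, and cryoablation replicate 7 was the highest tumor for Lcn2 (558 counts) and for Csf3 (146 counts).

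The sequence upstream of the genes was compared first, because C/EBP-epsilon is the transcription factor known to drive the secondary granule genes, so that promoters of this set are usually read for its letters. RefSeq promoter windows (build GRCm38.p6) were given for 9 of the 10 genes, all but Csf3, and the 250 bases before the start were searched on both strands for the letters TTNNGCAA, which a C/EBP factor can bind and which were chosen after other letter strings had been tried. They were found in 6 of these 9 genes, namely Ltf, Lcn2, Retnlg, Mmp8, Ly6g and Ngp, and in 9.56% of all 32851 promoters searched the same way. The match began 75 bases before the start in Ltf, 138 and 11 bases before it in Ngp, 19 in Mmp8 and 246 in Retnlg, and a match is a description of letters and not of binding. A motif of NF-kappaB was found in 0 of the 9 and in 0.98% of all promoters, which says only that its letters are not in these windows. These are the windows of Ltf (chr9:111019042-111019270), Ngp (chr9:110419558-110419746), Mmp8 (chr9:7558179-7558428) and Retnlg (chr16:48872358-48872607), each on the plus strand, written 5′ to 3′ and ending before annotated transcribed sequence, which leaves out the second match of Ngp, with the C/EBP letters, or their reverse complement, in capitals.
Ltf: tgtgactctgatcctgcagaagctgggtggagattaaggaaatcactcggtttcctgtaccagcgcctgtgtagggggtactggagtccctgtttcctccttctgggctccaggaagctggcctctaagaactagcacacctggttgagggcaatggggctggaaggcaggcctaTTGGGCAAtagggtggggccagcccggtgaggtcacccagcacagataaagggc
Ngp: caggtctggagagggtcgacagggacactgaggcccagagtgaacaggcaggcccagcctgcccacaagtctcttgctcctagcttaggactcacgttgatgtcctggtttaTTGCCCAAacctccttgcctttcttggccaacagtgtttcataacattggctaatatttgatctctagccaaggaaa
Mmp8: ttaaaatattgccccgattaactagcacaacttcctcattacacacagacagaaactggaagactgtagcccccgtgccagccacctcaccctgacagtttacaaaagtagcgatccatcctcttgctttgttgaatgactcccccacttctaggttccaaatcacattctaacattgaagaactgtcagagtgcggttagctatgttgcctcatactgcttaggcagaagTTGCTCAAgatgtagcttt
Retnlg: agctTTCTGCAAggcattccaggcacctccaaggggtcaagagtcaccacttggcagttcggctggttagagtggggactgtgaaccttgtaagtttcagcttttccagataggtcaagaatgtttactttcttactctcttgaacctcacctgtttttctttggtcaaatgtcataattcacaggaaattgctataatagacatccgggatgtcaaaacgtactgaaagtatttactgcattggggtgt

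Of the 10 genes, 5, namely Ltf, Lcn2, Retnlg, Mmp8 and Csf3r, had enough reads to enter the test over 13005 genes (edgeR's quasi-likelihood F test). Csf3, Cxcr2, Ly6g, Ngp and Camp did not pass the filter on low counts, and they were compared by an exact permutation test of log2 CPM (the TMM-normalized share of a library's counts) over all 24310 splits of the tumors into 9 and 8. Of the 5 genes tested, 1, Lcn2, passed the study's threshold, which asks for a log2 fold change above 1 or below -1 and for a p under 0.05 before adjustment. The same threshold was passed by 0.492% of all genes tested, 0.354% with higher and 0.138% with lower levels after cryoablation. With Benjamini-Hochberg adjustment over all genes, edgeR called 0 genes, and 0 were also called by DESeq2, edgeR's exact test and limma's voom, although 639 genes (4.91%) had an unadjusted p under 0.05 by the quasi-likelihood test, 881 by DESeq2, 777 by the exact test and 1312 by voom.

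Ltf encodes lactoferrin, the iron-binding protein of secondary granules and of glandular secretions. As the authors' table lists it, the gene (ENSMUSG00000032496) lies on chromosome 9 from 110848339 to 110871835 on the plus strand. The control tumors had a lowest count of 2, a median of 12 and a highest of 114, and the cryoablation tumors had a lowest count of 0, a median of 65.5 and a highest of 187. The groups overlapped: cryoablation replicates 2, 4 and 5 (123, 187 and 128 counts) were above every control tumor, while cryoablation replicates 7 and 8 (4 and 0 counts) were at the low end of all 17. The 0 in cryoablation replicate 8 allows up to 3 counts, or 0.179 CPM, and such limits cover counting error only. The mean level was 1.95 ± 2.35 CPM in control tumors (SD, n = 9) and 5.89 ± 5.77 CPM in cryoablation tumors (SD, n = 8), with 6 of 8 cryoablation tumors above the control median. The log2 fold change of 1.57 ± 0.83 (SE) had an unadjusted p over 0.05 (edgeR quasi-likelihood, adjusted p = 0.728), and the difference of 1.14 in mean log2 CPM did not pass either (two-sided exact permutation test, p = 0.271). Without cryoablation replicates 2, 4 and 5, the log2 fold change of Ltf was -0.038 (edgeR, adjusted p = 0.994). Under voom with quality weights on all 17 tumors, the log2 fold change of Ltf was -0.65, with an unadjusted p over 0.05.

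The genes most like Ltf across tumors, by Spearman's rho of log2 CPM over all 17 tumors, were Krt18 (rho = 0.95), Wfdc2 (rho = 0.93) and Krt7 (rho = 0.93). Krt18 and Krt7 encode keratins of simple epithelium, and Wfdc2 encodes a secreted protein of epithelial linings. Of the 3, Wfdc2 alone had an unadjusted p under 0.05, with a log2 fold change of 2.92 (edgeR). For Krt18, Pearson's r was 0.93, and it was 0.92 without the 2 tumors farthest from the Ltf median. The points share libraries and depth. Among neutrophil genes, the rho of Ltf was 0.79 with Hp, 0.72 with Camp, 0.70 with Retnlg and 0.69 with Prtn3. For other granule genes, it was 0.55 with Lcn2, 0.20 with Ngp and -0.05 with Mmp9. It was 0.36 with S100a8 and 0.58 with S100a9, the calprotectin genes that neutrophils transcribe in quantity, and -0.13 with both Csf3r and Mmp8. The summed level of 8 epithelial and gland genes (Krt7, Krt8, Krt18, Krt19, Epcam, Wfdc2, Csn3 and Prlr, chosen after their values were seen) ranged from 2.03 to 93 CPM in control tumors and from 2.23 to 246 CPM in cryoablation tumors. The 3 highest sums, 152, 159 and 246 CPM, belonged to cryoablation replicates 2, 4 and 5, the tumors with the highest Ltf, and in cryoablation replicates 7 and 8, the sums were 2.23 and 2.56 CPM. The part of these genes in the Ltf values was not tested. In bulk tumors, fewer cells of a type and less RNA per cell cannot be told apart for any gene described here.

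**Figure D2:**
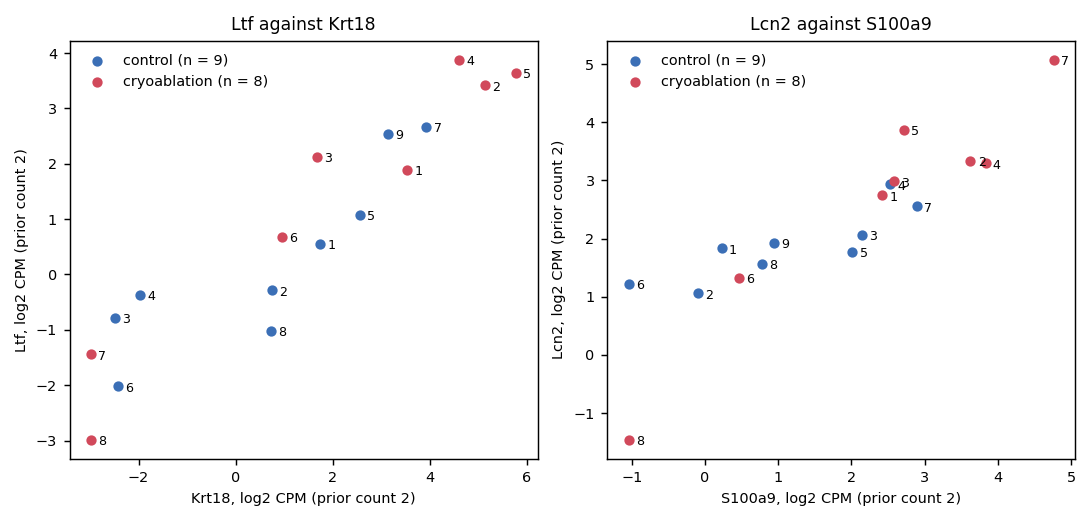
Log2 CPM with a prior count of 2 in each tumor, for Ltf (vertical) against Krt18 (horizontal) on the left and for Lcn2 against S100a9 on the right, with control and cryoablation tumors colored and numbered by replicate. Ltf followed Krt18 over the 17 tumors (rho = 0.95) and Lcn2 followed S100a9 (rho = 0.94), and cryoablation replicate 7 was high for Lcn2 but low for Ltf.

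Lcn2 encodes lipocalin 2, a secondary granule protein that binds bacterial siderophores. In the authors' table, the gene (ENSMUSG00000026822) lies on chromosome 2 from 32274645 to 32278264 on the minus strand. The lowest, median and highest counts were 34, 54 and 116 in control tumors and 4, 120 and 558 in cryoablation tumors. Scaled to CPM, cryoablation replicates 2, 3, 4, 5 and 7 (9.98, 7.80, 9.68, 14.5 and 33.6 CPM) exceeded every control tumor, of which the highest had 7.50 CPM, and cryoablation replicate 8 (0.238 CPM, from 4 counts) was below every control tumor. The mean level was 3.86 ± 1.76 CPM in control tumors (SD, n = 9) and 10.6 ± 10.3 CPM in cryoablation tumors (SD, n = 8), with 6 of 8 cryoablation tumors above the control median. The log2 fold change was 1.45 ± 0.53 (SE), which passed the study's threshold but not the adjustment over all genes (edgeR quasi-likelihood, adjusted p = 0.728). On the log scale, where each tumor weighs the same, the difference of 0.76 in mean log2 CPM did not pass (two-sided exact permutation test, p = 0.296).

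The Lcn2 call changed with the fit and with single tumors. Under voom with quality weights, the direction turned, to a log2 fold change of -0.33, and with the replicate number as a block it was 0.97, each with an unadjusted p over 0.05. Without cryoablation replicate 7, the log2 fold change was 0.90, its unadjusted p was over 0.05 (edgeR, adjusted p = 0.470), and it no longer passed, whereas without cryoablation replicate 8, the difference in mean log2 CPM was 1.35 and passed (exact permutation test, p = 0.00717). Without cryoablation replicates 2, 4 and 5, the log2 fold change was 1.38 and still passed the study's threshold (edgeR, adjusted p = 0.941). The genes most like Lcn2 were S100a9 (rho = 0.94), G0s2 (rho = 0.92), which encodes an inhibitor of lipid breakdown, and Rhebl1 (rho = 0.89), over 17 tumors that share libraries and depth. The log2 fold changes of G0s2 (1.18) and Rhebl1 (0.28) had an unadjusted p under 0.05 (edgeR). Between Lcn2 and S100a9, Pearson's r was 0.89, and it was 0.87 without the 2 tumors farthest from the Lcn2 median. The rho of Lcn2 was 0.44 with Krt18, below that of Ltf with the same keratin. Without the 2 tumors farthest from the Lcn2 median, the rho of Lcn2 with Krt18 was 0.64.

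Retnlg encodes a resistin-like protein that mature mouse neutrophils transcribe strongly. The gene (ENSMUSG00000022651) is listed on chromosome 16 from 48692984 to 48694859 on the plus strand. Its counts ran from 2 through a median of 32 to 162 in control tumors and from 3 through 37 to 147 in cryoablation tumors. Control replicate 4 (162 counts) and cryoablation replicate 4 (147 counts) were the highest tumors, control replicate 6 and cryoablation replicate 8 (2 and 3 counts) were the lowest, and the groups overlapped over nearly their whole range. The log2 fold change was 0.26 ± 0.68 (SE; edgeR quasi-likelihood, adjusted p = 0.889), and the difference in mean log2 CPM was 0.26 (exact permutation test, p = 0.742). Without cryoablation replicate 4, the log2 fold change was -0.29. Without cryoablation replicates 2, 4 and 5, it was -0.99 (edgeR, adjusted p = 0.941). By the same measure, Retnlg was most like P2rx1, which encodes an ATP-gated channel of leukocytes and platelets (rho = 0.87), Mfap5, which encodes a protein of elastic microfibrils (rho = 0.86), and Npl (rho = 0.86). With the other members, Retnlg varied most closely with Lcn2 (rho = 0.72) and Ltf (rho = 0.70), and hardly with Csf3r (rho = 0.15) or Mmp8 (rho = 0.03).

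Mmp8 encodes neutrophil collagenase, a protease that cuts fibrillar collagen. The gene (ENSMUSG00000005800) is listed on chromosome 9 from 7558457 to 7568486 on the plus strand. The lowest, median and highest counts were 8, 36 and 114 in control tumors and 17, 26 and 58 in cryoablation tumors. The cryoablation tumors lay within the control range, and the 3 tumors with the highest Mmp8 were control replicates 3, 4 and 7. The log2 fold change of -0.45 ± 0.38 (SE) did not pass (edgeR quasi-likelihood, adjusted p = 0.746), nor did the difference of -0.17 in mean log2 CPM (exact permutation test, p = 0.685). The SD of the Mmp8 level was 1.92 CPM over the control tumors and 0.689 CPM over the cryoablation tumors. Closest to Mmp8 across tumors were C1ra, which encodes a complement protease (rho = 0.92), C2cd2l (rho = 0.89) and Egr2, which encodes a zinc finger transcription factor (rho = 0.89).

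Ngp and Camp encode the neutrophilic granule protein and cathelicidin, a pair of related secondary granule proteins, and both had few reads. The authors' table lists Camp (ENSMUSG00000038357) at 109676447 to 109678685 on the minus strand and Ngp (ENSMUSG00000032484) at 110248815 to 110252080 on the plus strand of chromosome 9, so that Camp, Ngp and Ltf lie within 1.2 Mb. Ngp had 0 reads in 6 control tumors and 3 cryoablation tumors. Its highest count was 4 in control tumors (replicate 4), and in cryoablation tumors the highest counts were 37 in replicate 3, 10 in replicate 4 and 9 in replicate 2. The difference in mean log2 CPM was 1.18, with the higher values after cryoablation (two-sided exact permutation test, p = 0.0548), and it missed the threshold of 0.05. Camp had a lowest count of 0, a median of 4 and a highest of 6 in control tumors, and a lowest of 0, a median of 6 and a highest of 17 in cryoablation tumors. More Camp reads than in any control tumor were counted in 4 cryoablation tumors, and the difference of 0.72 in mean log2 CPM did not pass (exact permutation test, p = 0.117).

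Ngp passed in 4 of the fits that left out 1 tumor, and Camp in 1. For Ngp the difference was 1.34 without control replicate 4 (exact permutation test, p = 0.0312) and 1.40 without cryoablation replicate 1, 5 or 6, each of which had 0 reads (p = 0.0247). For Camp it was 1.01 without cryoablation replicate 7 (exact permutation test, p = 0.0149). Without cryoablation replicates 2, 4 and 5, the differences were 0.95 for Ngp (exact permutation test, p = 0.122) and 0.13 for Camp (p = 0.766). Of the 31 genes listed from Camp to Ltf, with these members included, 17 were tested. An unadjusted p under 0.05 was found for 1 of them, beside 4.91% of all genes tested. Their log2 fold changes ran from -0.40 to 1.57, the highest being that of Ltf itself, with a median of 0.00. When edgeR was run on all 17819 genes with a read, without the filter, 3 of the 10 genes had an unadjusted p under 0.05, beside 5.57% of all genes: Lcn2, Ngp with a log2 fold change of 3.33 and Csf3 with 2.49 (adjusted p = 0.699 for each).

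**Figure D3:**
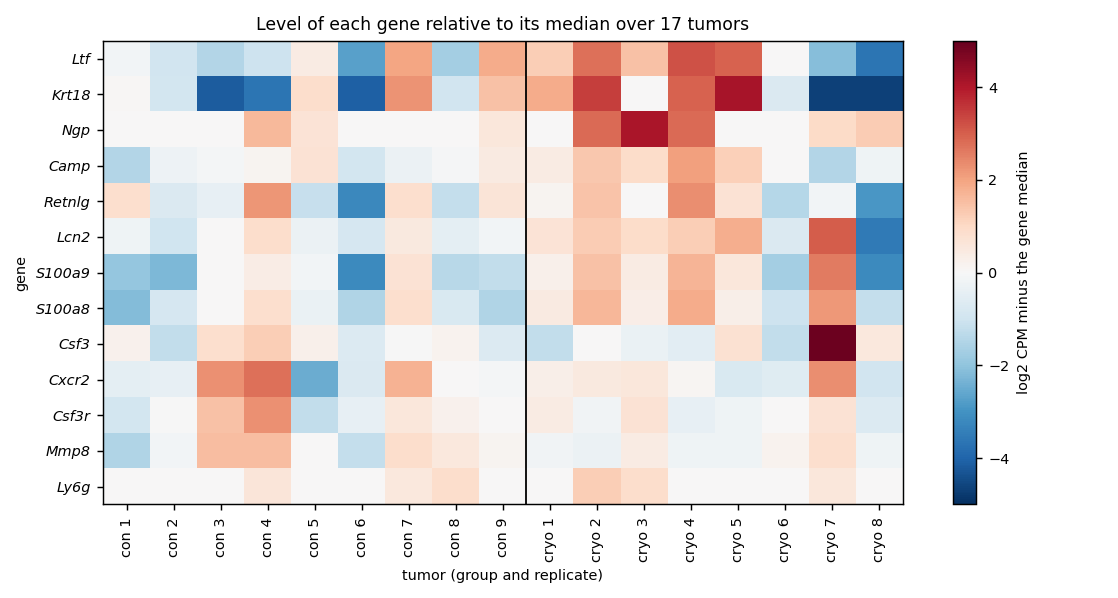
Log2 CPM minus the gene's median over the 17 tumors (color scale) for the 10 genes and for Krt18, S100a8 and S100a9, with control tumors on the left of the line and cryoablation tumors on the right. Ltf and Krt18 shared their high tumors (cryoablation replicates 2, 4 and 5), Lcn2 and the S100 genes were high in cryoablation replicate 7 as well, Csf3r and Mmp8 were highest in control replicates 3 and 4, and Cxcr2 was highest in control replicate 4 and cryoablation replicate 7.

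Csf3r encodes the G-CSF receptor, which neutrophils and their precursors carry and which monocytes carry at lower levels. The gene (ENSMUSG00000028859) is listed on chromosome 4 from 125918343 to 125938233 on the plus strand. It had the most reads of the 10 genes, with lowest, median and highest counts of 49, 150 and 682 in control tumors and 80, 125.5 and 272 in cryoablation tumors. Control replicates 4 and 3 (682 and 492 counts) stood above all other tumors, control replicates 5 and 1 (49 and 62 counts) were the lowest, and the cryoablation tumors lay between them. The mean level was 13.9 ± 13.0 CPM in control tumors (SD, n = 9) and 9.76 ± 3.65 CPM in cryoablation tumors (SD, n = 8). The log2 fold change of -0.51 ± 0.42 (SE) did not pass (edgeR quasi-likelihood, adjusted p = 0.744), and it was -0.060 without control replicate 4. The difference in mean log2 CPM was -0.17 (exact permutation test, p = 0.713). Csf3r was most like Als2cl (rho = 0.90), Il13ra1, which encodes a receptor chain for interleukin-13 (rho = 0.90), and C2cd2l (rho = 0.89), the last also among those most like Mmp8.

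Cxcr2 encodes the receptor for the CXC chemokines that attract neutrophils. The gene (ENSMUSG00000026180) is listed on chromosome 1 from 74193148 to 74200405 on the plus strand. Counts were low in most tumors, with lowest, median and highest values of 0, 9 and 71 in control tumors and 3, 9 and 57 in cryoablation tumors. Control replicates 3, 4 and 7 (65, 71 and 41 counts) and cryoablation replicate 7 (57 counts) were high, the other 13 tumors had at most 17, and the groups overlapped. The difference in mean log2 CPM was -0.10 (two-sided exact permutation test, p = 0.894), and it was 0.21 without control replicate 4. Across the 17 tumors, Cxcr2 varied with Csf3r (rho = 0.85, r = 0.89) and Csf3r with Mmp8 (rho = 0.84, r = 0.83), and without the 2 tumors farthest from the median of the second gene, r was 0.83 and 0.69. Cxcr2 was most like Zfp518a (rho = 0.88), Fmo1 (rho = 0.88), which encodes a flavin monooxygenase, and Dram1 (rho = 0.87), which encodes a lysosomal membrane protein.

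Leukocyte genes were set beside the members as a description of what varied with them. With Ptprc, which encodes the leukocyte antigen CD45, the rho was 0.77 for Csf3r, 0.72 for Mmp8 and 0.56 for Cxcr2, against -0.25 for Ltf and -0.17 for Lcn2. With Itgam, which encodes the myeloid integrin CD11b, it was 0.66 for Csf3r, 0.72 for Mmp8 and 0.76 for Cxcr2, against 0.09 for Ltf and 0.29 for Lcn2. The 17 points share libraries and depth. Of the 3 pan leukocyte genes, Itgb2 had an unadjusted p under 0.05 with a log2 fold change of -0.49 (edgeR), which was -0.41 and no longer under that p without cryoablation replicates 2, 4 and 5, and the summed level of the 3 ranged from 121 to 551 CPM in control tumors and from 141 to 327 CPM in cryoablation tumors. The part of leukocyte content in the values of Csf3r, Mmp8 and Cxcr2 was not tested.

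Ly6g encodes a surface protein of mouse neutrophils whose function is little known. The gene (ENSMUSG00000022582) is listed on chromosome 15 from 75027089 to 75030975 on the plus strand, and its relatives in the Ly6 family resemble it in sequence, so that its count is uncertain where reads are shared. Its count was 0 in 6 control tumors and 5 cryoablation tumors and at most 2 in the rest. The difference in mean log2 CPM was 0.12 (exact permutation test, p = 0.574). At this depth, no difference was detectable.

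Csf3 is the only ligand of the set, and G-CSF is made by fibroblasts, endothelium, macrophages and many tumor lines. The gene (ENSMUSG00000038067) is listed on chromosome 11 from 98592089 to 98594455 on the plus strand. Its counts were between 0 and 9 in control tumors and between 0 and 5 in cryoablation tumors apart from replicate 7, which had 146. Cryoablation replicate 7 stood alone, and all other tumors of both groups overlapped. The difference in mean log2 CPM was 0.34 (exact permutation test, p = 0.749), and it was -0.31 without cryoablation replicate 7 (p = 0.443). Csf3 was most like Nipal1 (rho = 0.78), Arl8a (rho = 0.78) and Tma16 (rho = 0.77), which had lower likeness than the genes named for the other members.

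In cryoablation replicate 7, other genes of the G-CSF and chemokine axis were high with Csf3. Cxcl1, the CXCR2 ligand that rises early in inflammation, had 5949 counts there and at most 269 in control tumors. Cxcl2 had 1267 counts against at most 142, and Cxcl3 had 751 against at most 157. Il6, the inflammatory cytokine, had 508 counts against at most 29. Of the 4 CXCR2 ligand genes tested, 2 had an unadjusted p under 0.05, Cxcl1 with a log2 fold change of 2.76 ± 0.89 (SE) and Cxcl2 with 1.74 ± 0.80 (SE), by edgeR's quasi-likelihood test. The log2 fold changes of 1.29 ± 0.77 (SE) for Cxcl3 and -1.06 ± 0.75 (SE) for Cxcl5 did not reach that p, and Ppbp was not tested. Without cryoablation replicate 7, the log2 fold change was -0.22 ± 0.23 (SE) for Cxcl1, -0.47 ± 0.43 for Cxcl2, -0.48 ± 0.54 for Cxcl3 and -0.27 ± 0.43 for Il6, none with an unadjusted p under 0.05, so the higher values of these genes rested on this tumor. They were 3.35 for Cxcl1, 2.25 for Cxcl2 and 2.82 for Il6 without cryoablation replicates 2, 4 and 5, each still with an unadjusted p under 0.05 (edgeR).

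The rest of the G-CSF and granulopoiesis list held 14 genes, of which 11 were tested. Il6 alone had an unadjusted p under 0.05, with a log2 fold change of 2.30 ± 0.87 (SE). Cebpe, which encodes C/EBP-epsilon, had lowest, median and highest counts of 7, 22 and 71 in control tumors and 3, 12 and 31 in cryoablation tumors, with a log2 fold change of -0.51 ± 0.51 (SE). Cebpb, which encodes the C/EBP factor of emergency granulopoiesis, had a log2 fold change of 0.65 ± 0.41 (SE), and Csf2rb, a shared receptor chain, one of -0.48 ± 0.25 (SE). The median log2 fold change of the 11 genes was -0.18, beside -0.01 over all genes tested.

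Other neutrophil genes were counted in 3 lists of 28 genes, of which 18 were tested. S100a8 and S100a9 had an unadjusted p under 0.05, both higher in cryoablation tumors, and 0 of the 18 were lower at that p, beside 3.74% higher and 1.17% lower over all genes tested. The log2 fold change was 1.34 ± 0.53 (SE) for S100a8 and 1.61 ± 0.65 (SE) for S100a9. Without cryoablation replicate 7, they were 1.04 and 1.11, and without cryoablation replicates 2, 4 and 5, they were 0.99 and 1.40. Neither gene had an unadjusted p under 0.05 in either fit. The median log2 fold change of the 18 genes was -0.17, with 7 above 0 and 11 below.

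Among the primary granule genes, Mpo, Elane and Ms4a3 were near the limit of detection, as their counts show. Mpo, the myeloperoxidase gene, had at most 4 counts in each group, Elane, the neutrophil elastase gene, at most 1 in control tumors and 6 in cryoablation tumors, and Ms4a3, a marker of granulocyte and monocyte precursors, at most 1 and 0. In control and cryoablation tumors, Prtn3 had at most 15 and 19 counts, Ctsg at least 16 and 12, and Serpinb1a at least 532 and 430. Of the 6 primary granule genes, 2 were tested, Ctsg with a log2 fold change of -0.34 ± 0.39 (SE) and Serpinb1a with -0.076 ± 0.15 (SE). Among the other secondary and tertiary granule genes, 5 of 8 were tested and 0 had an unadjusted p under 0.05. Chil3, a chitinase-like gene that monocytes also transcribe, had a log2 fold change of -1.07 ± 0.74 (SE), Hp, the haptoglobin gene, 0.94 ± 0.48, Cybb, an NADPH oxidase gene, -0.35 ± 0.22, and Mmp9, the gelatinase gene, 0.18 ± 0.19. When cryoablation replicates 2, 4 and 5 were left out, the log2 fold change of Hp was 0.44, and that of Chil3 was -2.36 with an unadjusted p under 0.05 (edgeR, adjusted p = 0.941).

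**Figure D4:**
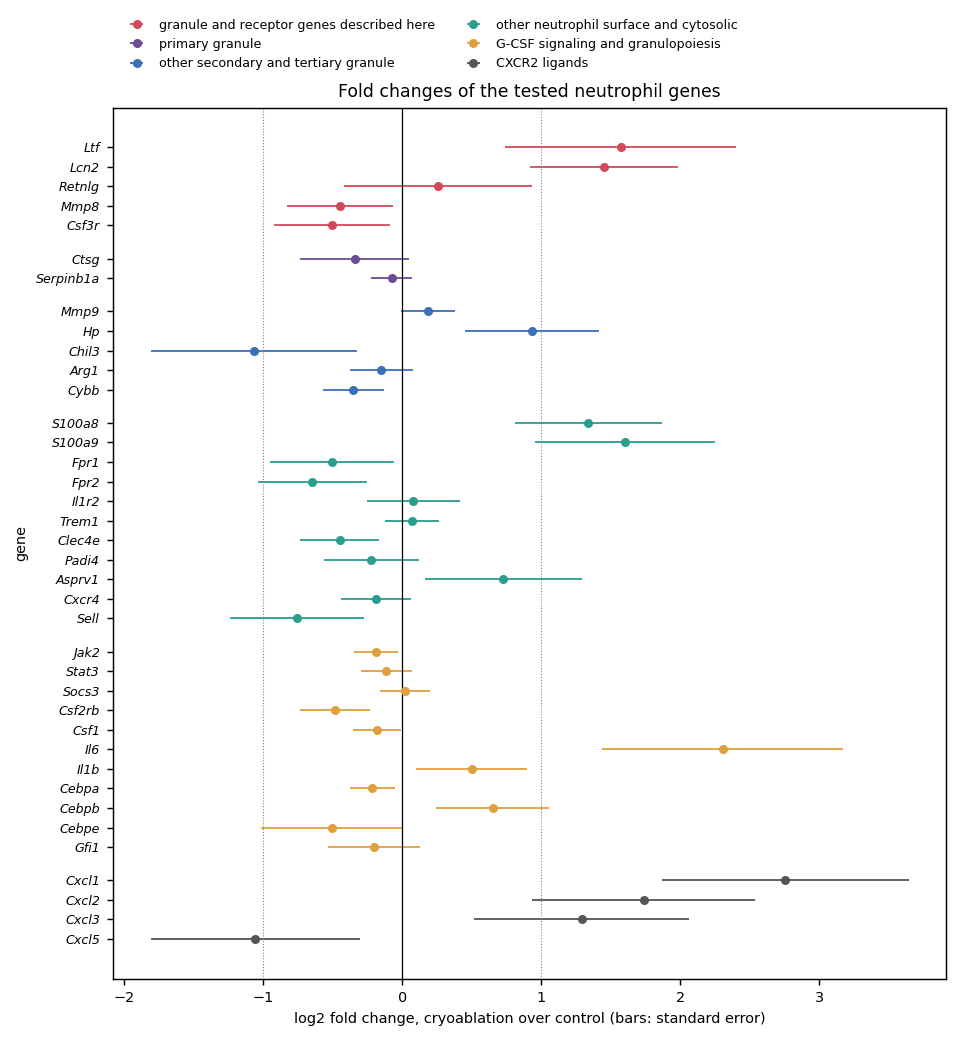
Log2 fold change of the cryoablation over the control group (horizontal axis, bars are the standard error) for the tested genes of the set and of the 5 related lists, with dotted lines at -1 and 1. Ltf (1.57), Lcn2 (1.45), S100a8 (1.34), S100a9 (1.61), Il6 (2.30), Cxcl1 (2.76), Cxcl2 (1.74) and Cxcl3 (1.29) lie right of the line at 1, Chil3 (-1.07) and Cxcl5 (-1.06) lie left of the line at -1, and Mmp8 (-0.45) and Csf3r (-0.51) lie between -1 and 0.

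Markers of other cells were counted the same way. Of 5 erythroid genes, 4 were tested and 4 had an unadjusted p under 0.05, all higher in cryoablation tumors, such as Hba-a1 with a log2 fold change of 1.75, and their summed level ranged from 6.15 to 74.5 CPM in control tumors and from 25.1 to 175 CPM in cryoablation tumors. The rho with Hba-a1 was 0.73 for Camp, 0.63 for Ltf and 0.59 for Lcn2, and -0.23 for Csf3r. Of 4 adipocyte genes, 2 had an unadjusted p under 0.05, Cfd with a log2 fold change of 1.61 and Fabp4 with 0.86, and the summed level ranged from 17.6 to 108 CPM in control tumors and from 17 to 206 CPM in cryoablation tumors. The rho with Adipoq was 0.68 for Ltf, 0.65 for Retnlg and 0.62 for Lcn2. Siglecf, a marker of eosinophils, had a log2 fold change of -1.80, Adgre1, a marker of macrophages, -0.69, and Krt10, a marker of epidermis, 0.73. Each was the only gene of its list with an unadjusted p under 0.05. Of the 7 macrophage genes, 3 had log2 fold changes above 0, such as C1qa with 0.52, and 4 below, with a median of -0.016. Of the 6 eosinophil, basophil and mast cell genes, 2 were tested. Among the untested genes of that list, mean CPM was higher in cryoablation tumors for Prg2, Epx and Mcpt8 and lower for Ms4a2. In the monocyte, platelet and skeletal muscle lists, 0 of the tested genes had an unadjusted p under 0.05. Without cryoablation replicates 2, 4 and 5, 1 erythroid gene and 0 adipocyte genes had such a p, and the log2 fold changes of -1.63 for Siglecf, -0.64 for Adgre1 and 0.14 for Krt10 did not. The part of these cells in the values of the set was not tested.

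**Figure D5:**
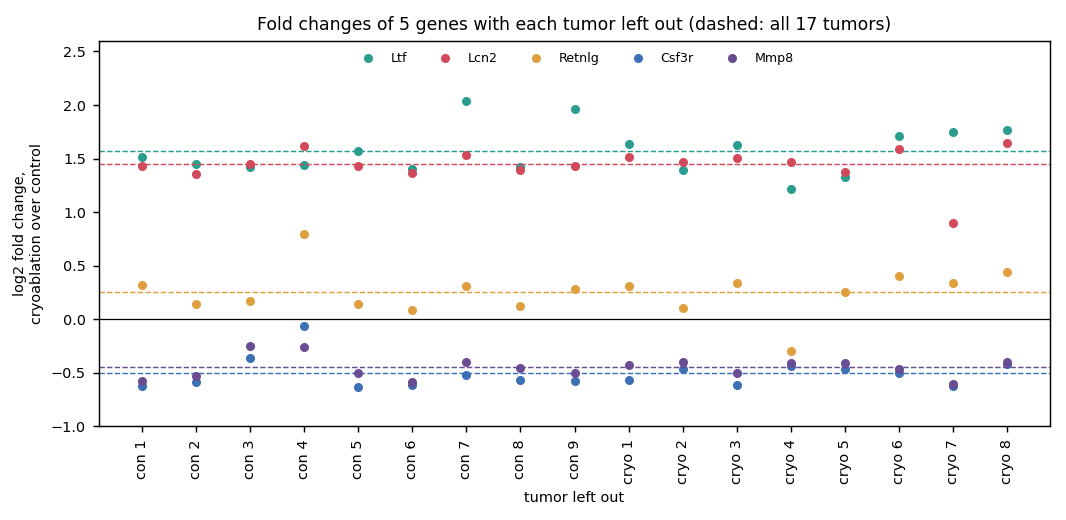
Log2 fold change of the 5 tested genes of the set with 1 tumor left out at a time (horizontal axis, points) and with all 17 tumors (dashed lines). Ltf stayed between 1.22 and 2.03, Lcn2 between 0.90 and 1.64, Retnlg moved from -0.29 to 0.79 across 0, and Mmp8 and Csf3r stayed below 0.

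When 1 tumor was left out at a time, Ltf passed the study's threshold in 4 fits, with log2 fold changes of 2.03 without control replicate 7, 1.96 without control replicate 9, 1.75 without cryoablation replicate 7 and 1.77 without cryoablation replicate 8. Adjusted over all genes, 0 genes passed in any of these fits. The sum of all 10 genes in a tumor ranged from 10.2 to 74.2 CPM in control tumors, with the highest in control replicate 4, and from 8.47 to 66.6 CPM in cryoablation tumors, with the highest in cryoablation replicate 7. In control replicate 4, 9 of the 10 genes were above their median over all tumors, and the gene farthest above it was Cxcr2. In cryoablation replicate 7, 7 of the 10 were above it, and the gene farthest above it was Csf3.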

How the data were processed

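RNA of 17 distant MC38 tumors (9 control, 8 cryoablation) was analysed, with groups taken from the deposited sample labels. The study's text gives the group sizes in reverse, and which is right was not tested. For each of 21931 genes, the authors deposited read counts, which are not normalized, and FPKM, which equal the count divided by gene length and by the total of the tumor (largest relative deviation 3.9e-14). mRNA was isolated with magnetic beads and sequenced on a NovaSeq platform. The aligner, the counting program and the strandedness are not given in the sources used here. The submitters' processing notes name GRCm38 and mm10, but 512 of 21827 genes have the start and end of GENCODE M21, so positions are printed without a build. 0 columns were left without a label, and 0 pairs of tumors had the same counts.

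Counts were tested with edgeR 4.0.16 (R 4.3.3): TMM normalization, filterByExpr by group, the quasi-likelihood F test on group alone, and Benjamini-Hochberg adjustment over 13005 genes. Standard errors were obtained as the log2 fold change over the square root of F. Log2 CPM had a prior count of 2 and were compared by two-sided exact permutation tests, whose smallest possible p is 4.11e-05; these p values are not adjusted. The labels do not tie each tumor to its own mouse, so p values measure the spread between these samples. The scripts were tested on simulated counts. The 10 members and the 14 other lists were chosen with earlier results of these data known. Named are the 10 genes, S100a8, S100a9 and the CXCR2 ligands, at most 4 genes per list with the largest absolute log2 fold change, genes whose counts check a cell type, and, for each member with a mean of at least 10 counts, the 3 genes tested with the highest Spearman's rho. Chosen after their values were seen were the 8 epithelial and gland genes, Mpo, Elane, Ms4a3, Mmp9, Cebpe and Hba-a1. Csf2rb, Prtn3, Prg2, Epx, Mcpt8 and Ms4a2 were also named outside the rule.

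Same-numbered tumors of the groups did not deviate together (correlations from -0.51 to 0.64, 2 of 8 highest with their own number), so tumors were not paired. Alternatives were leaving out each tumor, a replicate block, upper-quartile or total-count scaling, a prior count of 0.5, no filter or a mean of at least 10 counts, and other tests (DESeq2 1.42.0, limma 3.58.1 voom with quality weights and the exact test of edgeR). An offset for gene length (natural spline, 4 degrees of freedom) and the fit without cryoablation replicates 2, 4 and 5 were added after the data were seen. No protein sequences were used.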

Additional observations from a re-analysis of the deposited data

Results flagged for a closer look

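Of the 20 groups of tumors examined (10 genes in 2 groups), 6 were flagged. In these, the highest tumor lay apart from the rest by more than Dixon's 95% critical value for its gap over the range. That value flags about 1 in 20 groups of normally distributed values. CPM at or near 0 need not be so distributed, and the genes share tumors, so the 6 cannot be set against that share. Cryoablation replicate 7 was a flagged tumor for Lcn2 (33.6 CPM), Csf3 (8.79 CPM) and Cxcr2 (3.43 CPM). Cryoablation replicate 3 was one for Ngp (2.02 CPM). Control replicate 4 was one for Retnlg (10.5 CPM) and for Ngp (0.259 CPM, from 4 reads). The lowest tumor stood apart in none of the 20 groups.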

How the results depend on the processing

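The number of genes past the study's threshold, 64, became 432 without a filter on low counts, 33 with the replicate block and 39 with the offset for gene length, and 34 to 165 with each tumor left out. Genes with an unadjusted p under 0.05 numbered 639, but 1312 with voom, 992 without a filter and 325 without cryoablation replicates 2, 4 and 5, and 252 to 1388 with each tumor left out. Of the members and the 3 other neutrophil lists, 3 of 23 tested genes had such a p (4.91% of all genes), 7 of 38 without a filter (5.57% of all), and 2 to 6 with each tumor left out. Adjusted over all genes, 0 passed under any alternative.

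Voom with quality weights gave log2 fold changes of -0.65 for Ltf, -0.33 for Lcn2 and -0.61 for Retnlg. Without cryoablation replicates 2, 4 and 5, they were -0.038 for Ltf and -0.99 for Retnlg, and the differences in mean log2 CPM were -0.21 for Ltf, -0.62 for Retnlg, 0.030 for Csf3r and 0.051 for Cxcr2. The offset for gene length gave a log2 fold change of -0.36 and a difference of -0.11 for Retnlg, and a difference of -0.15 for Ly6g. A prior count of 0.5 gave a difference of 0.064 for Cxcr2. The cause of these reversals was not tested.

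With each tumor left out, log2 fold changes ranged from 1.22 to 2.03 for Ltf, 0.90 to 1.64 for Lcn2, -0.29 to 0.79 for Retnlg, -0.61 to -0.25 for Mmp8 and -0.63 to -0.060 for Csf3r. The differences in mean log2 CPM ranged from 0.78 to 1.76 for Ltf, 0.42 to 1.35 for Lcn2, -0.12 to 0.68 for Retnlg, -0.38 to 0.00066 for Mmp8, -0.34 to 0.095 for Csf3r, -0.31 to 0.57 for Csf3, -0.44 to 0.21 for Cxcr2, -0.013 to 0.20 for Ly6g, 0.81 to 1.40 for Ngp and 0.51 to 1.01 for Camp.

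Replicate numbers did not pair the tumors. With the replicate block, the log2 fold change was 0.97 for Lcn2, which then missed the study's threshold, and 2.09 for Ltf, which missed it in both fits. DESeq2, edgeR's exact test, upper-quartile normalization and a mean of at least 10 counts changed no direction of the 5 tested members. Depth limits Ly6g, Ngp, Camp and Csf3, whose medians were 4 counts or fewer over the 17 tumors.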
